A study of Mus musculus with 12 samples.

Results

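Txnip and its relative Arrdc4, with the thioredoxin genes Txn1, Txn2, Txnrd1, Prdx1 and Prdx3, were followed in pancreatic islets of mice with and without the nuclear receptor SHP. These 7 genes were selected on measured values of the same arrays, namely their log2 normalized levels in the 4 groups, so those levels and the differences between them are given as a description with their errors and without p-values. All 7 had a named probe among the 19057 genes named on the array, 6 of the 7 passed the filter on dim probes, and 8875 genes were tested in all.

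Each sample was islet RNA hybridised to an Illumina mouse beadchip. The mice were males of the strain C57Bl/6Hsd, 10 months old, either wild type (WT) or labelled as lacking SHP in the whole animal (SHPKO), and had eaten chow or a western diet for 6 months from an age of 4 months. Crossing genotype with diet gave 4 groups of 3 arrays. RNA of 5 to 9 mice a group was pooled and profiled in triplicate. Whether the 3 arrays of a group share a single pool is not stated outright; they are read here as technical replicates, and on that reading errors and p-values measure the spread between arrays and not between mice. Islets are a mixture of cells, and fewer cells of a type and less RNA per cell cannot be told apart.

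Thioredoxins are small proteins that reduce disulphide bonds in other proteins, and thioredoxin reductase recharges them with electrons from NADPH. Peroxiredoxins use that reducing power to remove hydrogen peroxide. TXNIP, an alpha-arrestin, binds thioredoxin and restrains it, lowers glucose uptake, and in beta cells is induced by glucose and linked to cell death. Its gene is a textbook target of the glucose-sensing factor ChREBP (Mlxipl), and ARRDC4 is its closest relative in sequence and is induced by glucose in several cell types.

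The probe of Nr0b2, which encodes SHP, was not above background on any of the 12 arrays (detection p-values 0.299 to 0.761), so the genotype labels could not be checked with it. Median raw intensity lay between 80 and 88 and 13821 to 16101 probes were detected per array. Islet identity was plain in the hormone genes: Ins2, an insulin gene, had group means of 14.53 to 14.56 on the log2 scale and Gcg, the glucagon gene, 14.63 to 14.82. The exocrine content was not even. The summed linear signal of 27 acinar markers was 301549 to 317042 in WT on chow, 231014 to 252912 in WT on western diet, 37521 to 42175 in SHPKO on chow and 35479 to 39818 in SHPKO on western diet, and Cel, a digestive lipase gene, had log2 differences of -4.59 between genotypes on chow and -4.32 on western diet (limma, adjusted p = 8.5e-12 and 5.8e-12).

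The promoters of both arrestin genes are shown because E-box-like elements of this kind are what ChREBP and its partner Mlx bind, and because the 2 genes had unlike profiles in the islets. The 250 bases before the RefSeq gene start (GRCm38.p6) were chr3:96557707-96557956 on the plus strand for Txnip and chr7:68749239-68749488 on the minus strand for Arrdc4. Capitals mark, for Txnip, the pair of CACGAG boxes in the same orientation with 5 bases between them, from 85 to 69 bases before the start, and, for Arrdc4, the E-box CACGTG from 193 to 188 bases before the start.
Txnip: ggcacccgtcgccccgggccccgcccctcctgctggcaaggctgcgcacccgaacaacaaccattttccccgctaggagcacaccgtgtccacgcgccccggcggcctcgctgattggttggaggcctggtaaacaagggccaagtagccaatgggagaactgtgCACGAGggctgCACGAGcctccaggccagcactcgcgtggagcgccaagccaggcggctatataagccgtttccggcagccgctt
Arrdc4: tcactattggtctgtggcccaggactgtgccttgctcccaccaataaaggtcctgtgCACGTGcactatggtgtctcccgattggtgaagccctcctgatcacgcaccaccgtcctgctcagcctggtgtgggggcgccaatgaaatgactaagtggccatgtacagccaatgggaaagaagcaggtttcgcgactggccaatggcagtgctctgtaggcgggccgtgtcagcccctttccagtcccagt

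Both strands were searched, and the motifs may overlap. The first form searched was an inverted pair, CANGNG and CNCNTG with a gap of 5 bases. It matched no member and stood in 0.557% of the 32851 promoter windows of 300 bases. The tandem form, CACGNG repeated in the same direction with a gap of 5 bases, was added after the Txnip sequence had been read. It stood in 16 windows (0.0487%), and because the Txnip window shaped it, that share describes the pattern and carries no weight for Txnip. The E-box CACGTG stood in 7.15% of windows, and among the members in that of Arrdc4 alone. The core of the antioxidant response element, TGACNNNGC, the site read by NRF2, stood in 12.4% of windows and in those of Prdx1, Arrdc4 and 1 of the 3 start sites of Txnrd1. A match is a string of letters and not a bound site.

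Txnip was higher in SHPKO than in WT islets on either diet, by far more on chow, and the diet moved it in opposite directions in the 2 genotypes. Its log2 normalized intensity on the 3 arrays was 11.93, 11.92 and 12.01 in WT on chow and 13.01, 13.11 and 13.09 in SHPKO on chow. On western diet it was 12.40, 12.46 and 12.42 in WT and 12.73, 12.67 and 12.66 in SHPKO. No array of any group overlapped another group, and the order was WT on chow, WT on western diet, SHPKO on western diet, SHPKO on chow, with each neighbour apart by more than the spread within groups (SD 0.03 to 0.05, n = 3).

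On chow, Txnip was 2.17-fold higher in SHPKO (log2 difference 1.12 ± 0.08 SE, 95% interval 0.95 to 1.28), the 18th highest difference of the 8875 genes. On western diet the same genotype difference was 1.20-fold (0.26 ± 0.08, interval 0.09 to 0.42). Western diet went with a level 1.39-fold higher in WT (0.48 ± 0.08, interval 0.31 to 0.64) and with a lower level in SHPKO (log2 difference -0.38 ± 0.08, interval -0.54 to -0.22). The genotype by diet interaction, taken as the western diet value of the genotype difference less its chow value, was -0.86 ± 0.11. Comparisons that share a group share its 3 arrays and are not independent.

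A second Txnip probe gave the same order of groups. It read 10.63, 10.57 and 10.59 in WT on chow and 11.76, 11.85 and 11.73 in SHPKO on chow. On western diet it read 11.24, 11.14 and 11.15 in WT and 11.53, 11.46 and 11.47 in SHPKO. Again no group overlapped another, and its differences were 1.19 between genotypes on chow, 0.31 on western diet, 0.58 for diet in WT and -0.30 for diet in SHPKO.

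**Figure D1:**
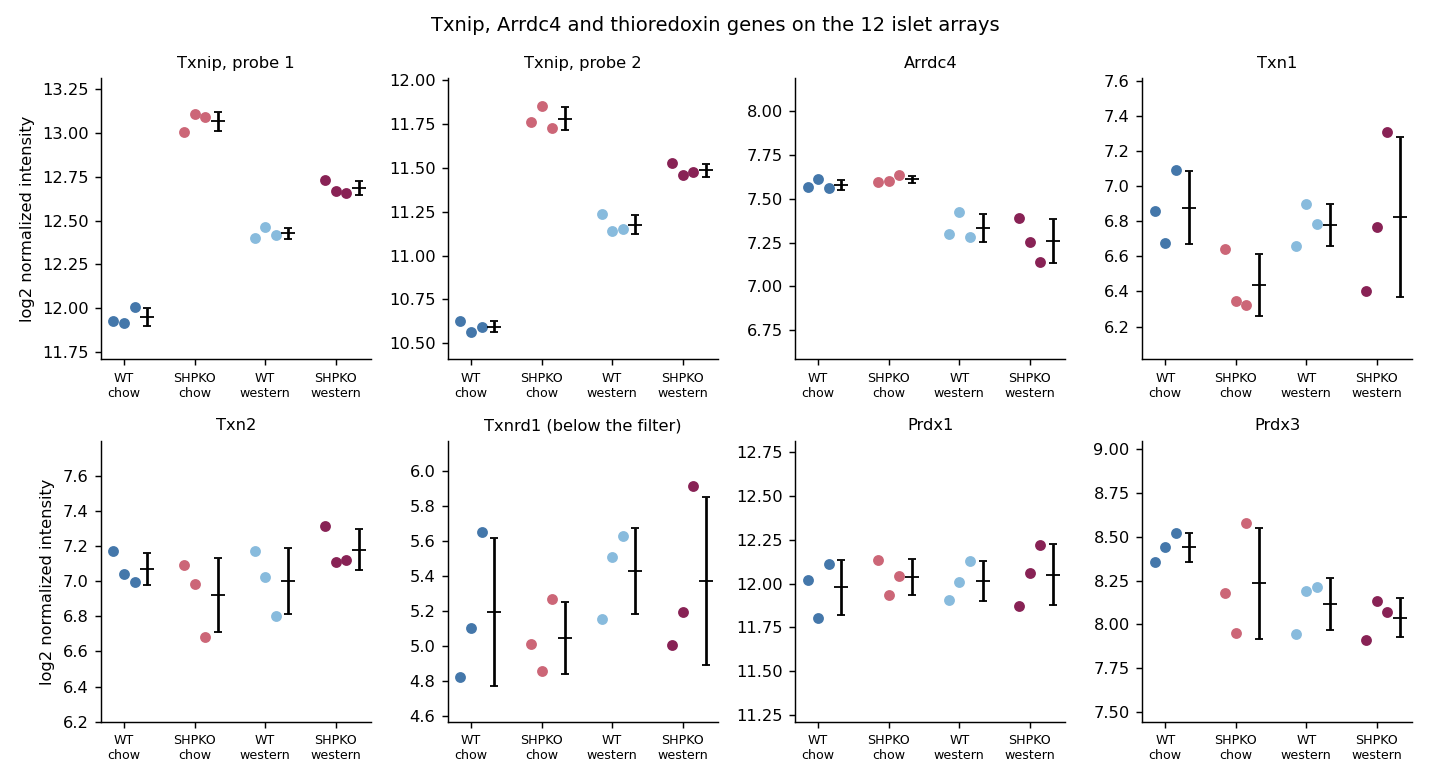
Log2 normalized intensity of 7 genes on 12 arrays, with 2 probes for Txnip; coloured points are arrays, the black bar beside them is the mean with its SD (n = 3), and every panel spans the same height. Both Txnip probes separate all 4 groups, while the thioredoxin and peroxiredoxin genes overlap in most comparisons; Txnrd1 lies below the detection filter.

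Arrdc4, the other glucose-induced arrestin, had no matching genotype difference. It read 7.57, 7.61 and 7.56 in WT on chow and 7.60, 7.60 and 7.63 in SHPKO on chow. On western diet it read 7.30, 7.43 and 7.28 in WT and 7.39, 7.25 and 7.14 in SHPKO. The genotypes overlapped on either diet, whereas within each genotype every western diet array was below every chow array.

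The Arrdc4 genotype difference on chow was 0.03 ± 0.09 (95% interval -0.15 to 0.22) and on western diet it was -0.07 ± 0.09 (interval -0.26 to 0.11). Under scaling to a common median these were 0.23 and 0.07, where the median of all genes was 0.16 and 0.14. Diet differences were -0.24 ± 0.09 in WT and -0.35 ± 0.09 in SHPKO. Red cell markers also differed by diet: the summed signal of 4 of them was 9414 to 11336 over the chow arrays and 2087 to 4060 over the western diet arrays. In WT 4 of 4 were called lower (1.48% of all genes) and in SHPKO 3 of 4 (1.09%). Their part in the diet differences of Arrdc4, Txnip and the other members was not tested. In WT, the diet went with higher Txnip and lower Arrdc4, and in SHPKO with lower levels of both. Across the 12 arrays the Pearson correlation of Arrdc4 with Txnip was -0.00466, a description over arrays that fall into 4 groups.

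Txn1, the cytosolic thioredoxin that TXNIP binds, was lower in SHPKO on chow, with a wide error. It read 6.86, 6.68 and 7.10 in WT on chow and 6.64, 6.35 and 6.32 in SHPKO on chow. On western diet it read 6.66, 6.90 and 6.78 in WT and 6.40, 6.77 and 7.31 in SHPKO. The chow groups did not overlap, by a small gap, and the SHPKO western diet arrays were spread more widely than those of any other group.

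The genotype difference of Txn1 was -0.44 ± 0.19 on chow (interval -0.86 to -0.03) and 0.04 ± 0.19 on western diet (interval -0.37 to 0.46). Its diet difference in SHPKO was 0.39 ± 0.19 with all arrays and 0.15 without SHPKO western diet array 3. On western diet the genotype difference turned to -0.20 without that array. Both other Txn1 probes were undetected on all 12 arrays.

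Txn2, the mitochondrial thioredoxin, overlapped between genotypes on chow. It read 7.17, 7.04 and 6.997 in WT on chow and 7.09, 6.98 and 6.68 in SHPKO on chow. On western diet it read 7.17, 7.02 and 6.80 in WT and 7.31, 7.11 and 7.12 in SHPKO. Every SHPKO western diet array lay above every SHPKO chow array, while the WT arrays of the diets overlapped. The differences were -0.15 and 0.18 between genotypes on chow and western diet, and -0.07 and 0.26 for diet in WT and SHPKO (SE 0.13 each).

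Txnrd1, the cytosolic thioredoxin reductase, could not be compared. Its single probe was detected on 5 of the 12 arrays, with detection p-values up to 0.0855, and in no group on all 3 arrays. Its readings of 4.82 to 5.91 lay near background, so no fold is given. Txnrd2, the mitochondrial reductase and no member, was measurable, with differences of -0.06 and 0.05 between genotypes and -0.19 and -0.09 for diet in WT and SHPKO (SE 0.08).

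Prdx1, a cytosolic peroxiredoxin, read 12.02, 11.81 and 12.11 in WT on chow and 12.14, 11.93 and 12.04 in SHPKO. On western diet its readings were 11.91, 12.01 and 12.13 in WT, then 11.87, 12.06 and 12.22 in SHPKO. All 4 groups overlapped. Its 4 differences lay between 0.01 and 0.06 (SE 0.11). The 95% intervals of the genotype differences ran from 0.876-fold to 1.24-fold on chow and from 0.862-fold to 1.22-fold on western diet. A second Prdx1 probe was undetected on all 12 arrays.

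Prdx3, the mitochondrial peroxiredoxin, read 8.36, 8.44 and 8.52 in WT on chow and 8.18, 7.95 and 8.58 in SHPKO on chow. On western diet it read 7.95, 8.19 and 8.22 in WT and 7.91, 8.13 and 8.07 in SHPKO. The WT diet groups did not overlap, with a difference of -0.32 ± 0.14 (interval -0.63 to -0.01), and the genotypes overlapped on either diet. The remaining differences were -0.20 ± 0.14 and -0.08 ± 0.14 between genotypes on chow and western diet, and -0.20 ± 0.14 for diet in SHPKO.

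**Figure D2:**
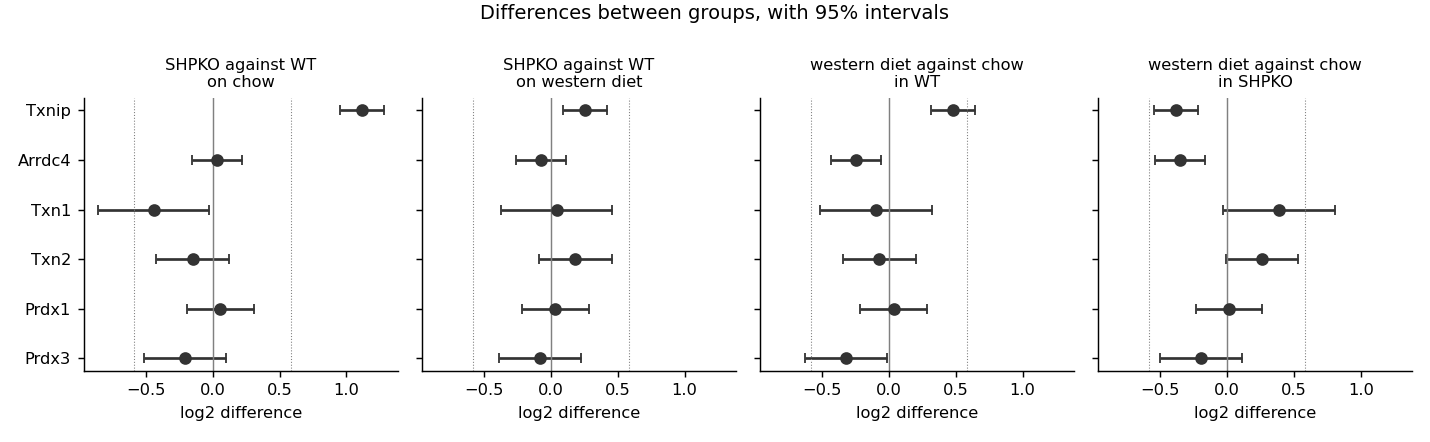
Log2 difference (points) with its 95% interval (bars) for 6 genes in 4 comparisons of 3 arrays each; dotted lines mark 1.5-fold. Txnip is past 1.5-fold on chow alone, at 1.12, and Arrdc4 lies at 0.03 there; intervals of Txn1 are the widest.

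A gene was called at an adjusted p below 0.05 (limma, Benjamini-Hochberg over all genes) and at least 1.5-fold. By that rule 1 of the 6 members, Txnip, was called between genotypes on chow, where 2.11% of all genes were called, 0.901% higher and 1.21% lower. None of the 6 was called between genotypes on western diet, against 3.17% of all genes (1.95% higher, 1.22% lower), for diet in WT, against 2.73% (1.25% higher, 1.48% lower), or for diet in SHPKO, against 3.29% (2.2% higher, 1.09% lower). In the interaction 1 was called, again Txnip, against 2.07% (1.49% higher, 0.586% lower). Without the minimum fold 515 of the 8875 genes passed by diet in WT, Txnip among them. By diet in SHPKO 513 passed, Txnip and Arrdc4 among them. Since the members were chosen on these levels, nothing is read from their counts.

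Arrays of the groups did not overlap for 2 of the 6 members between genotypes on chow (17.1% of all genes), for 1 on western diet (24.5%), for 3 by diet in WT (25.1%) and for 3 by diet in SHPKO (27.2%). The median difference of the 6 was -0.06 and 0.04 between genotypes on chow and western diet and -0.08 and -0.09 for diet in WT and SHPKO, beside 0.01, 0.02, 0.02 and 0.02 for all genes.

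The wider thioredoxin system, with further peroxiredoxins, glutaredoxins, sulfiredoxin, sestrins, thioredoxin-like oxidoreductases of the endoplasmic reticulum and ribonucleotide reductase, held 24 tested genes of 38 listed. None of the 24 was called in any of the 5 contrasts in limma. Of all genes 2.11% were called on chow and 3.17% on western diet. By diet it was 2.73% in WT and 3.29% in SHPKO, and 2.07% in the interaction. At such shares, no call among 24 genes says little about the list. The same shares stand beside the call counts of the other lists below. At an unadjusted p below 0.05 there were 5 on chow, 2 on western diet, 5 for diet in WT, 2 for diet in SHPKO and 3 in the interaction. The share of all genes at that threshold was not computed, so nothing is read from these counts. Differences on chow ran from -0.44 to 0.18 with a median of -0.02. Prdx2, a cytosolic peroxiredoxin, differed by 0.18 ± 0.08 on chow and Prdx4, the peroxiredoxin of the endoplasmic reticulum, by -0.27 ± 0.10 (limma, adjusted p = 0.36 and 0.26).

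Among the other alpha-arrestins, the 2 tested genes, Arrdc1 and Arrdc2, were not called in any contrast in limma, and neither had an unadjusted p below 0.05. Their differences were 0.17 ± 0.17 and 0.13 ± 0.14 on chow. No probe was named Arrdc3 or Prdx6.

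Glucose-responsive genes around ChREBP and Mlx numbered 19 tested of 29 listed. On chow 1 was called higher and 1 lower in SHPKO. Khk, ketohexokinase of fructose metabolism, rose by 0.63 ± 0.11 (limma, adjusted p = 0.0050), from 7.95, 7.64 and 7.91 in WT to 8.34, 8.48 and 8.56 in SHPKO without overlap. Fgf21, a metabolic hormone gene, had a difference of -0.96 ± 0.20 (adjusted p = 0.021). Its SHPKO mean of 5.19 lay near background, so the size of that difference is uncertain. The call of Khk was lost without WT chow array 2 or SHPKO chow array 3, and that of Fgf21 without WT chow array 2 or 3 or SHPKO chow array 2.

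Mlxipl itself was not called in any contrast. Its differences were 0.14 ± 0.13 and -0.16 ± 0.13 between genotypes on chow and western diet, and 0.15 ± 0.13 and -0.15 ± 0.13 for diet in WT and SHPKO. The call for Pklr, the pyruvate kinase gene that is a classical ChREBP target, could not be made, since none of its 3 probes passed the filter.

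On western diet 2 genes of this list were called higher in SHPKO and 1 lower. Scd1, the stearoyl-CoA desaturase, was 1.01 ± 0.15 higher (limma, adjusted p = 0.00087) and read 7.12, 7.14 and 7.14 in SHPKO against 6.36, 5.91 and 6.11 in WT. Pdk4, a kinase that inhibits pyruvate dehydrogenase, was 0.59 ± 0.14 higher (adjusted p = 0.027), a call lost without any of WT array 1 or 2 and SHPKO array 1 or 3. Rgs16, a regulator of G protein signalling, had a difference of -0.69 ± 0.13 (adjusted p = 0.0072).

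By diet, Rgs16 rose in WT by 0.64 ± 0.13 (limma, adjusted p = 0.013) in the direction of Txnip there. In WT Fgf21 had a difference of -0.97 ± 0.20 (limma, adjusted p = 0.016), of uncertain size, since its western diet mean of 5.18 lay near background. These were the 1 higher and 1 lower call. The Rgs16 call was lost without WT western diet array 1 and that of Fgf21 without WT chow array 2. In SHPKO, Scd1 rose by 1.17 ± 0.15 and Tkfc, a triokinase of fructose metabolism, by 0.71 ± 0.10 (adjusted p = 0.00026 and 0.00057), and no gene of the list was called lower.

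NRF2 targets, antioxidant genes of the kind to which Txnrd1 and Prdx1 also belong, held 13 tested genes of 22 listed, with 1 call in each contrast. Mgst1, a microsomal glutathione transferase, was 0.71 ± 0.14 higher in SHPKO on chow (limma, adjusted p = 0.011). Leaving out the third WT chow array ended this call, and the WT chow mean of 5.12 lay near background, so the size is uncertain. Gstm1, a cytosolic glutathione transferase, was lower on western diet in SHPKO (-0.70 ± 0.09, adjusted p = 0.00032). Hmox1, heme oxygenase, was not detected in WT on western diet, so that it was at least 1.17-fold lower there than in WT on chow (adjusted p = 0.012) and SHPKO on western diet was at least 1.14-fold higher (adjusted p = 0.014). The first of these calls was lost without WT chow array 1, and the second without WT western diet array 2 or SHPKO western diet array 2.

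Partners and regulators of TXNIP held 17 tested genes of 20 listed. On chow 1 was called, Ddit4, a stress-induced inhibitor of mTORC1 signalling that has been reported to bind TXNIP. It read 8.95, 8.68 and 8.93 in WT and 9.51, 9.61 and 9.58 in SHPKO, without overlap, a rise of 0.71 ± 0.10 (limma, adjusted p = 0.00084) that was called in all 24 alternative settings. On western diet its difference was 0.42 ± 0.10, under 1.5-fold.

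Casp1, the inflammasome protease, was called on western diet in SHPKO, where Txnip lay below SHPKO on chow and above WT on western diet. It read 6.97, 7.003 and 7.21 there, 6.26, 6.34 and 6.17 in WT on western diet, and 6.06, 6.19 and 5.82 in SHPKO on chow. It was 0.80 ± 0.11 higher than in WT on that diet and 1.04 ± 0.11 higher than in SHPKO on chow (limma, adjusted p = 0.00057 and 5.6e-05). In those same arrays the summed signal of 8 lymphocyte markers was 1239 to 1384, against 132 to 399 in the other groups, and that of 14 macrophage markers 9282 to 9890, against 4920 to 7219; their part in the Casp1 difference was not tested. Mafa, a beta cell transcription factor that TXNIP is known to lower, had a log2 difference of -0.73 ± 0.17 by diet in SHPKO (limma, adjusted p = 0.023). That call was lost without SHPKO chow array 2 or 3 and without SHPKO western diet array 1 or 3. Mafa read 5.54, 5.68 and 5.23 in SHPKO on western diet and did not pass detection on every array, so the size is uncertain. In WT it also read lower on western diet without overlap, 5.98, 5.57 and 5.79 against 6.38, 6.17 and 6.17 on chow. No gene of this list was called by diet in WT, where 6 of the 17 had an unadjusted p below 0.05. Nothing is read from that count, since the share of all genes was not computed.

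Some of these calls were also ended by a processing choice. Without background correction or with an offset of 50 those of Khk, Mgst1, Pdk4, Hmox1, Fgf21, Mafa and Tkfc were lost, and without background correction so were those of Casp1 between genotypes on western diet and of Rgs16 by diet in WT. A common median ended those of Fgf21 on chow, Rgs16 on western diet and Hmox1 by diet in WT, and the mean of a gene's probes those of Khk and Gstm1. Fitting the compared groups alone ended those of Fgf21 by diet in WT and of Mafa, and normalizing without acinar probes, added after seeing the data, that of Pdk4. The calls of Ddit4 on chow, of Scd1 in its 2 comparisons and of Casp1 by diet in SHPKO held in all 24 alternatives.

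**Figure D3:**
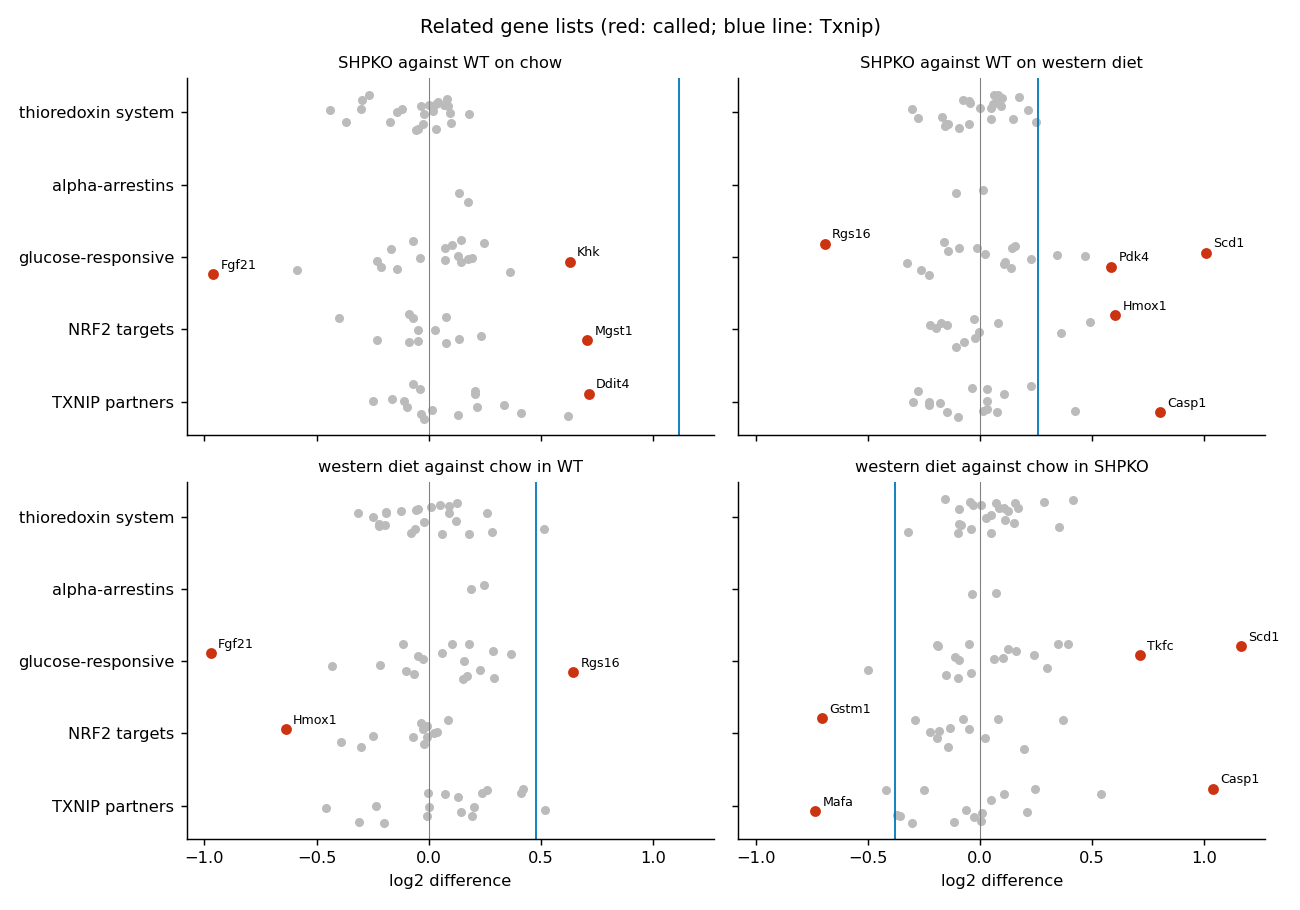
Log2 difference of each tested gene of 5 related lists in 4 comparisons; red points are called genes, grey points are not, vertical scatter within a list has no meaning, and the blue line is Txnip. On chow no gene of these lists is as far to the right as Txnip, at 1.12; Scd1 and Casp1 stand out on western diet in SHPKO.

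Genes were ranked by the likeness of their profile to that of Txnip, as Pearson's r over the 12 arrays. The 12 points fall into 4 groups, so r mostly describes the order of the groups. The highest were Csmd2 (0.942), Tmem181a (0.936), Khk (0.931), Sox4 (0.928), Atp5b (0.918) and Egr1 (0.918). Sox4, a transcription factor gene, had group means of 7.20 in WT on chow, 8.20 in WT on western diet, 8.68 in SHPKO on western diet and 8.81 in SHPKO on chow, the order seen for Txnip. Egr1, an immediate early gene, had means of 10.36, 11.31, 11.41 and 11.64 in the same order. Not all neighbouring groups of these genes were apart by more than the spread, as those of Txnip were. Sox4 differed by -0.13 by diet in SHPKO (SD 0.15 on chow and 0.29 on western diet). Egr1 differed by 0.10 between genotypes on western diet (SD 0.10 in WT and 0.15 in SHPKO).

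The lowest were Ctsk (-0.938), Reg3d (-0.925) and Ctrc (-0.92). Ctrc, chymotrypsin C of acinar cells, had means of 7.18 in WT on chow and 6.24 in WT on western diet. Ctrc and Reg3d were detected on none of the 6 SHPKO arrays and Ctsk on 1 of them, so these correlations rest partly on signal at background, and the SHPKO groups have no order for these genes. The genes most like Arrdc4 were Ranbp3 (0.933), Tubb5 (0.919) and Fam104a (0.912). The correlation with Txnip was -0.527 for Txn1, -0.384 for Prdx3, -0.227 for Txn2 and 0.183 for Prdx1.

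**Figure D4:**
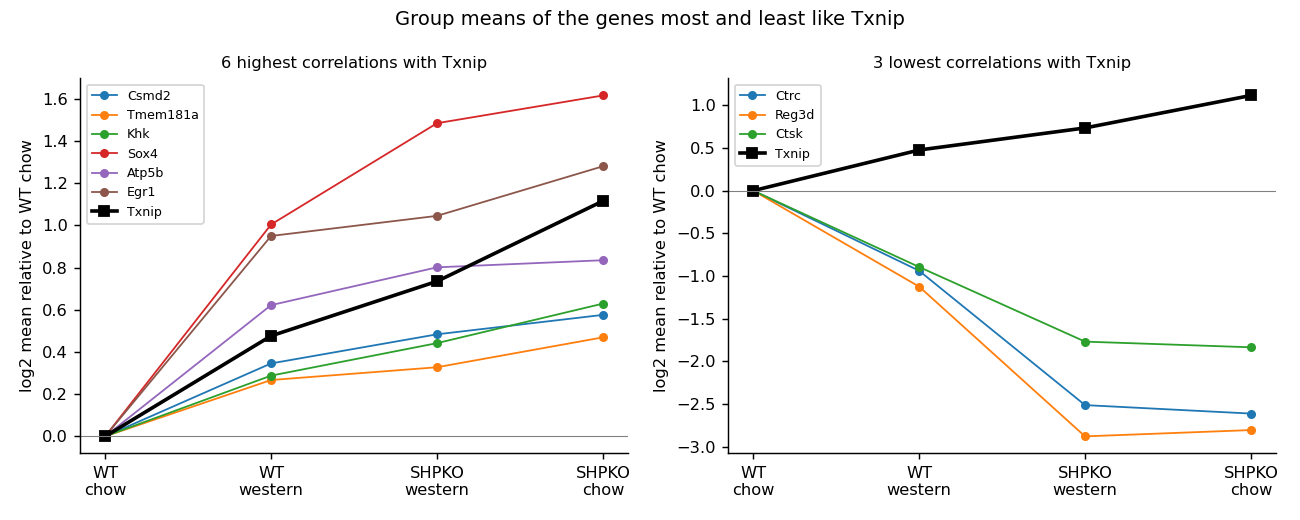
Group means (3 arrays each) on the log2 scale, relative to WT on chow, of the 6 genes with the highest and the 3 with the lowest correlation with Txnip; groups are ordered by the mean of Txnip, and lines only join the means of a gene. Txnip rises to 1.12 in SHPKO on chow, while Ctrc, Reg3d and Ctsk are highest in WT on chow and at or near background in the SHPKO groups.

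Acinar markers and immediate early genes differed in some of the comparisons in which Txnip did. Of the 27 acinar markers tested, 26 were called lower in SHPKO on either diet (1.21% of all genes on chow, 1.22% on western diet). On western diet in WT 10 were called lower (1.48% of all genes). By diet in SHPKO 8 of the 27 were called lower and 3 higher (1.09% and 2.2% of all genes). With the acinar probes left out before normalization, an alternative chosen after seeing the data, the Txnip genotype difference was 1.03 on chow and 0.18 on western diet. The summed signal of 12 immediate early genes, which respond to handling, was 3189 to 3374 in WT on chow, 6405 to 6869 in SHPKO on chow, and 5927 to 6163 and 6120 to 6708 with western diet. Of these 12, 4 were called higher in SHPKO on chow (0.901% of all genes) and 7 higher on western diet in WT (1.25%). Sums of other cell types also differed between genotypes. On chow those of duct markers were 5828 to 6226 in WT and 3162 to 3329 in SHPKO. Fibroblast and stellate cell sums were 1070 to 1206 and 1408 to 1612, and endothelial sums 6597 to 7517 and 7828 to 8305. On western diet none of these sums overlapped between genotypes either. Whether acinar content, these other cells or handling have a part in the Txnip differences was not tested.

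Between the SHPKO groups Txnip differed by -0.38. The acinar and immediate early sums overlapped there, although 11 of the 27 acinar markers were called in one direction or the other. Lymphocyte sums in SHPKO were 132 to 203 on chow and 1239 to 1384 on western diet. Macrophage sums were 5244 to 5404 and 9282 to 9890, and fibroblast and stellate cell sums 1408 to 1612 and 1659 to 1848. The part of any of these cells, or of handling, in the Txnip difference was not tested. The summed signal of 11 beta cell markers was 80220 to 83189 in WT and 86309 to 93248 in SHPKO on chow, and 84739 to 86416 and 83022 to 86039 on western diet. Ins2 differed by 0.00 ± 0.08 between genotypes on chow. It lay near the top of the scale, with the same value of 14.61 on WT chow array 3, SHPKO chow array 2 and WT western diet array 3. Quantile normalization leaves little room for a difference there, so this value does not measure beta cell content.

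**Figure D5:**
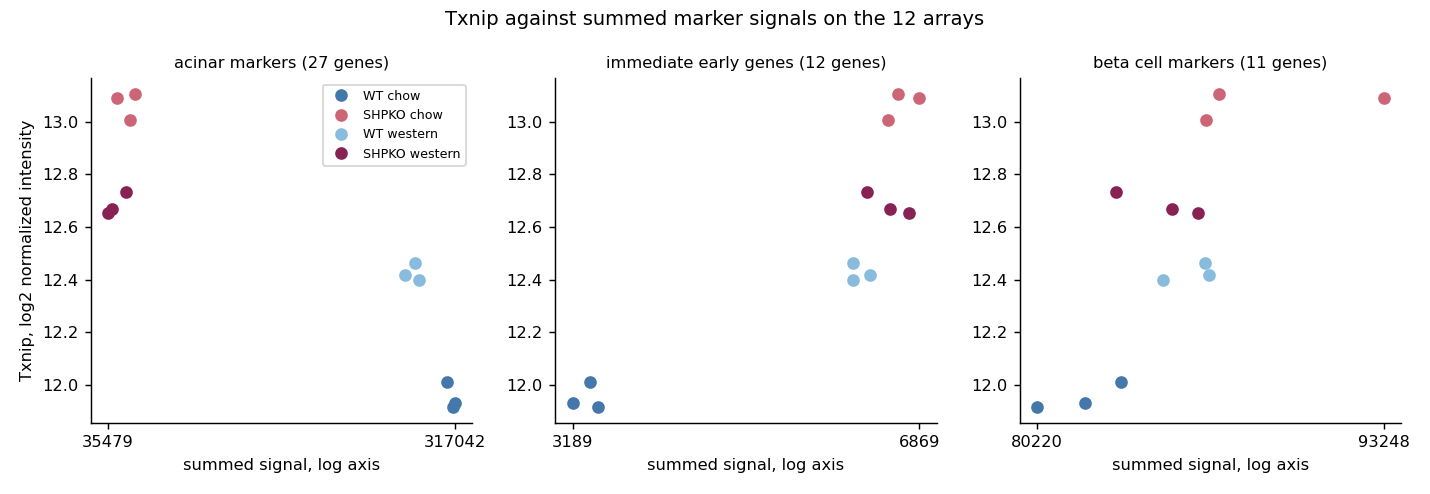
Txnip log2 normalized intensity (vertical axis) against the summed linear signal of acinar markers, immediate early genes and beta cell markers (log axes, labelled at their lowest and highest array) on the 12 arrays. WT on chow is alone at the low immediate early sums of 3189 to 3374, and the acinar sums of the SHPKO groups overlap at 35479 to 42175.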

How the data were processed

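Islet RNA was measured on 12 arrays with 45281 probes each. Per the submitters' processing notes the tables came from BeadStudio, no version being given. The raw intensity table, as deposited, has a linear value per probe and array, and beside it a deposited detection p-value, which sets the probe against that array's negative controls. A second deposited table holds background-subtracted, normalized intensity, judged from its values, and served as an alternative. The slide of each array and the genome build are not given in the sources used here.

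Raw intensities were background-corrected, quantile-normalized with an offset of 16 and put on the log2 scale with neqc in limma 3.58.1 (R 4.3.3). Probes with a detection p-value below 0.01 on all 3 arrays of a group were kept (14756), the brightest stood for its gene, and 1 model of 4 group means was fitted to 8875 genes. Of all probes 34885 had 1 gene name, 18 several and 10378 none. Fold bounds for an undetected group set the dim signal on each array at the lowest detected value, or at the gene's own where that was higher. The fit was tested on simulated data, with 50 changes of each size between genotypes on chow. It recovered 48% of changes of 1.5-fold, 100% of 2-fold, 98% of 3-fold and 100% of 4-fold. Changes of 1.5-fold lay on the minimum fold itself, so noise alone put many under it, and that share does not measure sensitivity. The simulated noise was independent between arrays, without an effect shared by arrays of the same number. A gene not called can thus still differ by about 1.5-fold. All 7 members were matched to promoter windows, 9 in all, in the RefSeq table of GRCm38.p6. Their windows hold 250 bases before and 50 after the start.

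The members, lists, thresholds and tests were chosen with earlier results of these data known. The text names every member, the called genes of each list (or the 3 largest each way beyond 6), a few always-named genes such as Mlxipl, Prdx2 and Ins2, and the genes most and least correlated with Txnip. Alternatives covered background correction, offset, scaling, the authors' table, the filter, probe choice, the replicate number as a block, the 2 groups alone and each array left out. The tandem promoter motif and the normalization without acinar probes were chosen after seeing the data. Arrays with the same number deviated together with r from -0.035 to 0.539, and 11 of 18 pairs exceeded 0.1. The 36 pairs with unlike numbers had r from -0.495 to 0.303. These values lean towards an effect shared by arrays of the same number. The main fit left it out, and the replicate number as a block was an alternative.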

Additional observations from a re-analysis of the deposited data

Results flagged for a closer look

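The diet effect on Txnip ran in opposite directions on every array of the 2 genotypes: above the chow arrays in WT and below them in SHPKO, a log2 interaction of -0.86. The interaction was part of the fit over all genes, where Txnip passed the call rule, but Txnip was chosen on these levels, so that call is no independent test and the difference is given as a description.

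For 5 genes of the related lists the interaction passed the call rule (limma, Benjamini-Hochberg over all genes). Scd1 had an interaction of 1.60 ± 0.21 (adjusted p = 0.00072), and was called higher in SHPKO on western diet and was not called on chow (log2 difference -0.59, adjusted p = 0.054). That chow difference was called with the replicate block, with the mean of a gene's probes, without WT chow array 2 and without WT western diet array 1. Casp1 had an interaction of 0.91 ± 0.16 (adjusted p = 0.0062). Hmox1 had a fitted value of 0.84 (adjusted p = 0.029), which gives no size, since the gene was not detected in WT on western diet. Rgs16 had -0.84 ± 0.19 (adjusted p = 0.035) and Tkfc 0.61 ± 0.14 (adjusted p = 0.038). Of the alternative settings, Scd1 was called in 23 of 23, Casp1 in 22 of 23, Rgs16 in 13 of 23, Hmox1 in 12 of 22 and Tkfc in 7 of 23.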

How the results depend on the processing

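Txnip kept its sign in every alternative run. On chow it ranged from 1.03 to 1.19. Since it was chosen on these levels, its calls across settings are not counted. Scaling to a common median gave Txnip 0.33 on western diet, -0.28 (diet in SHPKO) and an interaction of -0.78. It moved the median of all genes by 0.16 and 0.14 between genotypes on chow and western diet, and Arrdc4 to 0.23 and 0.07 there, so the sign on western diet turned. The second probe gave 1.19, 0.31, 0.58 and -0.30. Normalizing without acinar probes, added after seeing the data, gave 1.03 on chow and 0.18 on western diet, and the mean of both probes 0.53 for diet in WT. Leaving out single arrays gave Txnip 1.10 to 1.15 on chow, 0.24 to 0.28 on western diet, 0.46 to 0.51 for diet in WT, -0.41 to -0.36 for diet in SHPKO and -0.89 to -0.84 in the interaction. Of 570 values of the other members 565 moved by less than 1 SD. Many of these could not move. Each of these genes had 1 kept probe, so the choices of filter and probe returned the main value. The replicate block, the fit of the compared groups alone and arrays left out of other groups did so too. That count therefore says little about how stable these values are.

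Counts of genes called were 187, 281, 242, 292 and 184 on chow, on western diet, by diet in WT, by diet in SHPKO and in the interaction. Without background correction the first 4 were 96, 125, 86 and 127, with an offset of 50 they were 115, 168, 128 and 181, and for genes detected on all 12 arrays 105, 137, 160 and 139, with 80 in the interaction. Without a minimum fold they were 441, 515 and 513 on western diet and by diet in WT and SHPKO, and with every probe kept apart 375 by diet in WT. With the replicate number as a block (replicate block) they were 233, 292, 270, 323 and 238, and 10 of 12 arrays correlated best with their own number, a hint from the data and not the design.

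Of 75 related list genes tested in the main fit, 4 were called on chow, 5 on western diet and 3 by diet in WT. By diet in SHPKO 5 were called, and 5 in the interaction. Their shares were 5.33%, 6.67%, 4%, 6.67% and 6.67% in that order, beside 2.11%, 3.17%, 2.73%, 3.29% and 2.07% of all genes. Nothing is read from these shares, since the lists were chosen with earlier results of these data known. The counts became 1, 2, 0, 3 and 2 without background correction and 1, 3, 1, 3 and 3 with an offset of 50. Detection on all 12 arrays left 2 on chow, 1 by diet in WT and 3 in the interaction. A common median left 3 and no filter 2 in the interaction, every probe apart gave 8 by diet in SHPKO, and no minimum fold 5 by diet in WT. Single arrays left out gave 2 to 5 on chow, 3 to 5 on western diet and 2 to 4 in the interaction. The cause of these changes was not tested. Txnrd1 and Nr0b2 are limited by signal near background, and the number of arrays, 12, limits all precision.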
